A study of Caenorhabditis elegans with 12 samples.

Results

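The genes described here are the sperm genes of Caenorhabditis elegans outside the major sperm protein (msp) family: every gene whose name begins with spe-, nspd-, ssp-, ssq- or sss-, together with fer-1, gsp-3, gsp-4, smz-1, smz-2 and the channel gene trp-3, which the deposited tables list under its other name, spe-41. They number 55 of the 20222 genes listed. The rule uses gene names and no measured value, though it was set with earlier results of these data known. Polyadenylated RNA was sequenced from whole animals collected on day 1 of adulthood after being picked at the L4 larval stage and grown at 20 °C on OP50 bacteria. The 4 strains were N2, the wild type; AV477, which carries dsb-2(me96); AV157, which carries spo-11(me44); and TY4986, which carries htp-3(y428). Each strain had 3 libraries, called biological replicates in the series text, and strains are named below by their mutated gene. Each mutation was carried by a single strain, so its effect and other differences of that strain cannot be told apart. The labels do not state the sex of the animals.

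In C. elegans hermaphrodites, germ cells become sperm during the last larval stage and oocytes afterwards, while males make sperm throughout adult life. Sperm genes are transcribed mainly in spermatocytes; spermatids then lose their ribosomes and rely on stored protein. Their products pack the membranous organelles, turn the round spermatid into a crawling spermatozoon, fuse sperm with egg and supply a factor that the zygote needs. The proteins SPO-11, DSB-2 and HTP-3 act in meiosis: the first cuts DNA to start recombination, DSB-2 promotes that cutting, and HTP-3 is part of the chromosome axis.

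Depth was between 32422219 and 42527086 mapped reads per library, of which between 78.8% and 97.9% fell in listed genes. Between 6448 and 11974 reads per library lay on the 55 genes in N2, dsb-2 and htp-3, and between 50620 and 100478 in spo-11. Levels are given as TPM, a measure of transcript abundance that corrects for exon length and sums to the same total in every library. Of the mutated genes, the htp-3 transcript was at 77.9, 69.2 and 67.9 TPM in N2 and at 6.67, 12.3 and 9.52 TPM in the htp-3 strain, and the dsb-2 transcript was at 57.6, 62.5 and 55.4 TPM in N2 and at 17.4, 20.1 and 17.8 TPM in the dsb-2 strain. Neither pair of groups overlapped. The spo-11 transcript was at 29.6, 45.9 and 24.5 TPM in N2 and at 37.9, 33.7 and 37 TPM in the spo-11 strain, so its level does not check that label.

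The 55 genes were far more abundant in spo-11 adults than in the other strains. Their summed level was 167, 204 and 286 TPM in the N2 libraries, 204, 280.3 and 214 TPM in dsb-2, 388, 264 and 559 TPM in htp-3, and 3608, 3024 and 6085 TPM in spo-11. Every spo-11 library lay above every library of the other strains, dsb-2 overlapped N2, and htp-3 replicate 2 lay below N2 replicate 3. The ratio of strain means was 19.4 for spo-11 over N2, 1.84 for htp-3 over N2 and 1.06 for dsb-2 over N2. In whole animals, fewer cells of a type and less RNA per cell cannot be told apart, here and in every result that follows.

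Only a few of these genes carried most of the N2 signal. The vesicle trafficking gene spe-39, spe-48, the transcription factor gene spe-44 and the proton pump gene spe-5 held 54.7% of the summed N2 level and 2.06% of the spo-11 level. Their joint level was 123, 118 and 118 TPM in N2 and 78.1, 92.6 and 91.8 TPM in spo-11, with every spo-11 library below every N2 library. The other 51 genes summed to 44.2, 86.2 and 167 TPM in N2, to 327, 159 and 483 TPM in htp-3, and to 3530.3, 2931 and 5993 TPM in spo-11. Without the 4 abundant genes the ratio of means was therefore 41.8 for spo-11 over N2 and 3.25 for htp-3 over N2, and htp-3 replicate 2 still lay below N2 replicate 3.

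**Figure D1:**
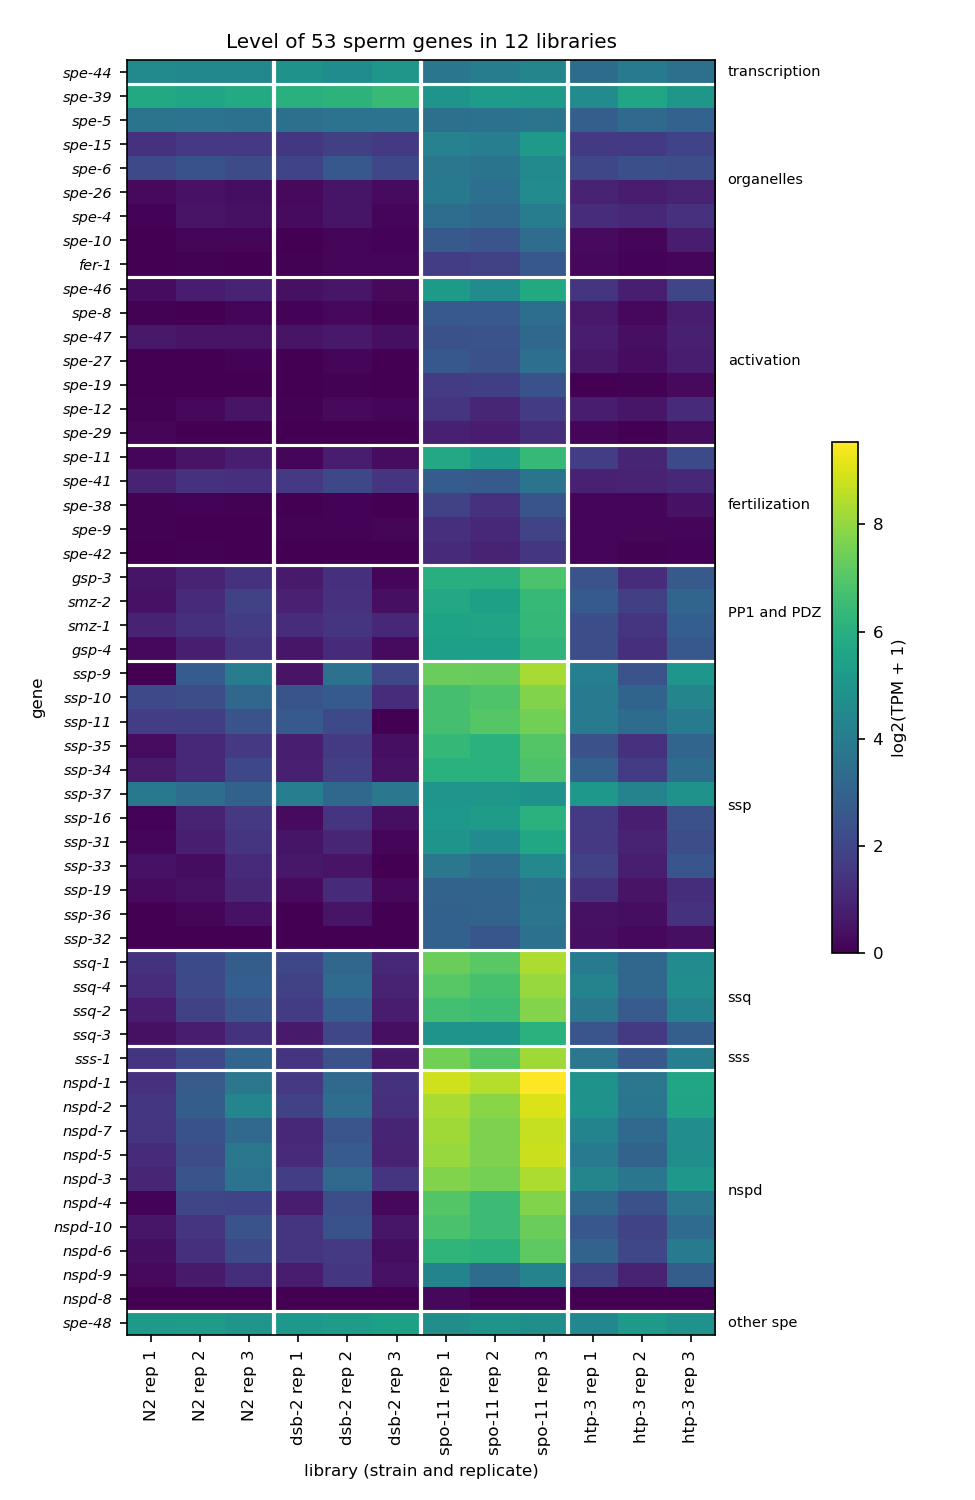
Level of each of 53 of the 55 genes, as log2(TPM + 1), in each of the 12 libraries (columns, by strain), with genes in rows grouped by role. The 3 spo-11 columns are the brightest (highest) in most rows, and the rows of spe-39, spe-48, spe-44 and spe-5 are bright in every strain.

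Differences were tested on log2(TPM + 1) with limma, in 1 fit over all 12 libraries, for the 13650 genes that reached 1 TPM in 3 or more libraries; a gene was called at a Benjamini-Hochberg adjusted p under 0.05. Of the 55 genes, 51 passed that filter. Adding 1 TPM before taking logarithms understates the change of genes with low levels, so ratios of strain means are given beside the log2 values. The filter also shapes what can be said of the genes that passed: 27 of the 55 reach it in the N2 and dsb-2 libraries alone and 36 without the spo-11 libraries, so the others are tested only because they are high in spo-11.

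Against N2, 47 of the 51 tested genes were higher in spo-11 and 1, spe-39, was lower, where 55.6% of all tested genes were higher and 22.1% lower. Among the 27 genes that pass the filter on N2 and dsb-2 libraries alone, 23 were higher and 1 lower, beside 41.9% and 29.4% of the 10236 genes that pass the same way. With no filter, 50 of the 55 were higher and 1 lower, beside 54.2% and 15.3% of all genes. The 3 spo-11 libraries lay above all 3 N2 libraries for 50 of the 55 genes and 47 of the 51 tested, where 56.9% of all tested genes did so, and below them for 3, spe-39, spe-44 and spe-48, where 26.7% did so. The median log2 difference of the 51 genes was 4.31, and that of all 13650 tested genes was 0.80. Scaling by median of ratios brought the median of all genes to 0.16 and the split of all calls from 7584 higher and 3010 lower to 6033 higher and 5449 lower; of the 51 sperm genes 47 were then higher and 4 lower. Over the 49 genes with more than 3 reads in N2, the ratio of spo-11 to N2 means ran from 0.633 to 139 with a median of 46.8, and it exceeded 10 for 41 of them.

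In htp-3 the same genes moved in fewer cases and by less. Against N2, 27 of the 51 were called higher and 3 lower, where 39.5% of all tested genes were higher and 19.7% lower. With median-of-ratios scaling 18 were higher and 4 lower, and the split of all tested genes turned to 30.9% higher and 34.7% lower. With no filter 19 of the 55 were higher and 3 lower, beside 29.6% and 12.6% of all genes. The median log2 difference was 0.91 for the 51 genes and 0.27 for all tested genes. The ratio of means over the 49 genes had a median of 3.28 and a highest value of 8.13. Every htp-3 library lay above every N2 library for 20 of the 51 tested genes, a share below the 43.3% of all tested genes that did so, and below them for 3 (spe-5, spe-39 and spe-44), where 20.2% did so. Single libraries weigh on the count of 27. Leaving out N2 replicate 1 gave 12, N2 replicate 2 gave 17, htp-3 replicate 1 gave 16 and htp-3 replicate 3 gave 12. With a pseudocount of 5 TPM it was 14.

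The dsb-2 strain gave no call among these genes. Of the 51, 0 were higher and 0 lower by limma, where 0.19% of all tested genes were higher and 0.0733% lower; 1 of them, spe-39, had an unadjusted p under 0.05, and limma-voom on the rebuilt reads gave 0 calls as well. The log2 differences ran from -0.85 (nspd-7, SE 0.49, limma adjusted p = 0.549) to 0.51 (spe-41, SE 0.25, limma adjusted p = 0.485), with a median of -0.04. Every dsb-2 library lay above every N2 library for 4 genes, spe-9, spe-39, spe-41 and spe-44, where 8.64% of all tested genes did so, and below for 0, where 7.57% did so.

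**Figure D2:**
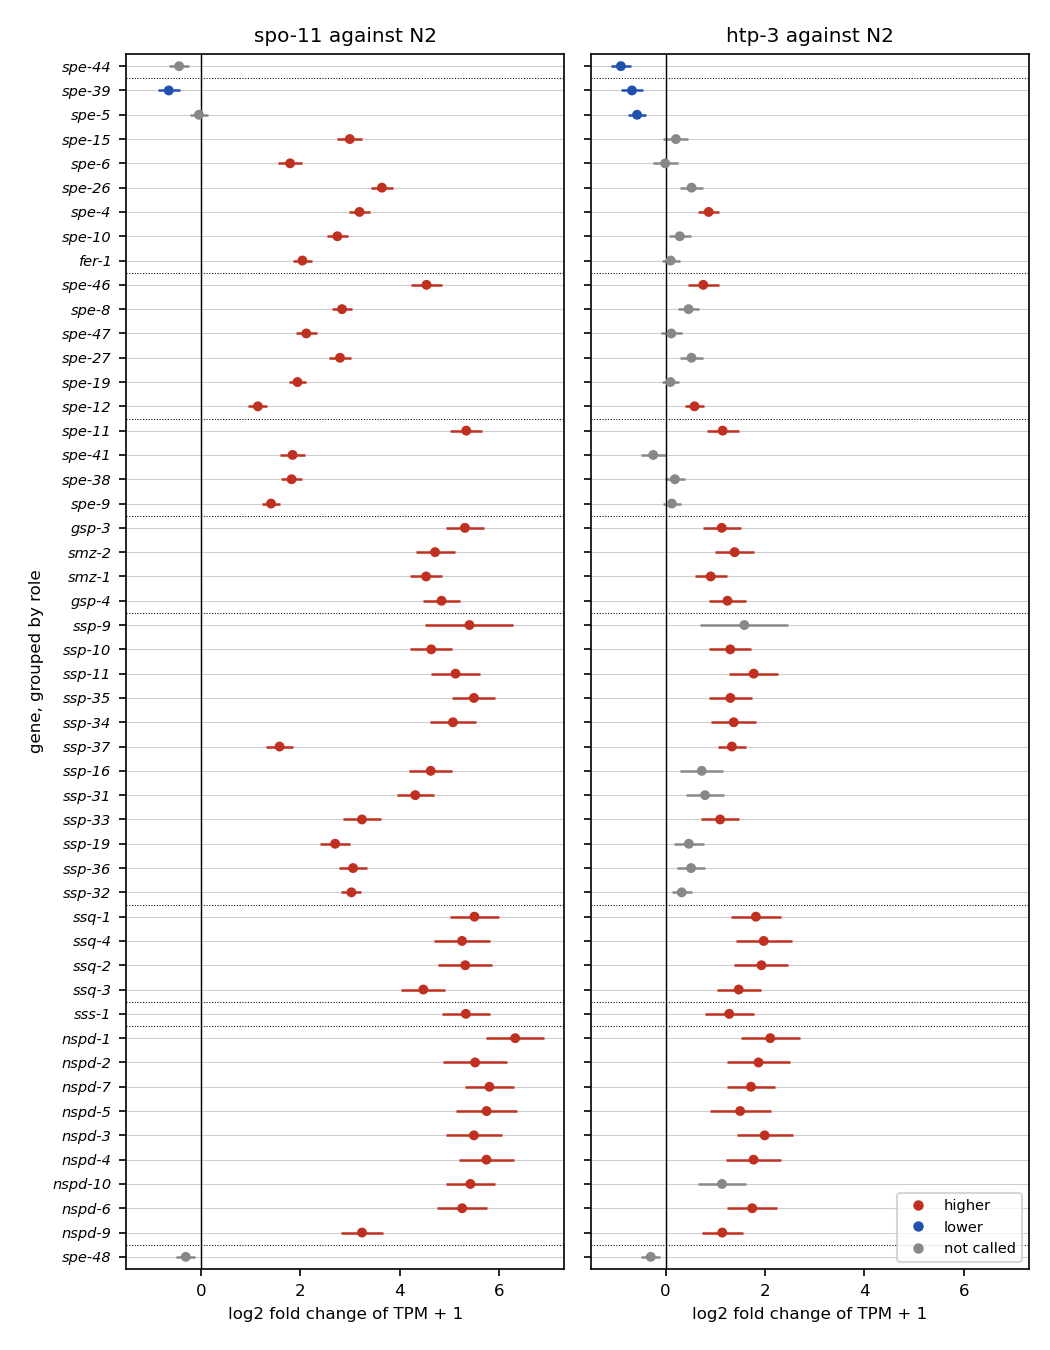
Difference from N2 on the log2(TPM + 1) scale for each of 50 of the 51 tested genes (rows), in spo-11 (left panel) and htp-3 (right panel), with bars of 1 standard error from limma and colours for higher, lower and not called. Most spo-11 points lie between 1 and 6.32 and those of spe-44, spe-39, spe-48 and spe-5 lie at or left of 0. The htp-3 points lie at 2.11 or less.

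Sperm development begins in the spermatocyte, and the gene that acts earliest went against most of the others. The DNA-binding protein SPE-44 drives transcription of many spermatocyte genes. Its transcript (spe-44, chromosome IV, 12452066 to 12454215) was at 22.9, 20.8 and 21.0 TPM in N2, 28.6, 24.1 and 32.5 TPM in dsb-2, 12.4, 15.6 and 19.7 TPM in spo-11 and 9.48, 13.7 and 10.4 TPM in htp-3. All spo-11 and all htp-3 libraries were below the lowest N2 library. The fall in htp-3 was 0.90 on the log2 scale (-0.90, SE 0.21, limma adjusted p = 0.00207). In spo-11 the difference of -0.44 (SE 0.21, limma adjusted p = 0.0645) was not called, whereas it was called with each of 5 other settings, among them median-of-ratios scaling (-1.23, adjusted p = 2.01e-04) and limma-voom (-0.48, adjusted p = 0.0332), and with either spo-11 replicate 3 or htp-3 replicate 2 left out.

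Genes for the organelles and cytoskeleton of the spermatocyte divided into abundant genes that were not higher in spo-11 and scarce genes that were. Of 9 genes, all tested, 7 were higher and 1 lower in spo-11, where 55.6% of all tested genes were higher and 22.1% lower. The filter fixed part of the count of 7, since fer-1, spe-10 and spe-26, among others, pass it only through the spo-11 libraries. In htp-3, 1 was higher and 2 lower, where 39.5% of all tested genes were higher and 19.7% lower. The gene spe-39 (chromosome V, 6785457 to 6787866), whose protein acts in vesicle trafficking in many tissues, was at 54.1, 49.4 and 56.1 TPM in N2, 30, 36.8 and 34.3 TPM in spo-11 and 23.4, 47.2 and 31.9 TPM in htp-3. Neither mutant overlapped N2. It fell by 0.65 on the log2 scale in spo-11 (-0.65, SE 0.22, limma adjusted p = 0.0128) and by 0.68 in htp-3 (-0.68, SE 0.22, limma adjusted p = 0.0147). The first call was lost without spo-11 replicate 1 (adjusted p = 0.0543) and the second without htp-3 replicate 1 (adjusted p = 0.0692). The gene spe-5 (chromosome I, 5101682 to 5103467), which encodes a B subunit of the vacuolar proton pump, was at 11.8, 11.4 and 10.8 TPM in N2, 10.6, 10.7 and 11.7 TPM in spo-11, and 6.48, 8.55 and 6.94 TPM in htp-3. It was not called in spo-11 (-0.04, SE 0.18, limma adjusted p = 0.839) except under median-of-ratios scaling (-0.80, adjusted p = 6.68e-04), and fell by 0.57 in htp-3 (-0.57, SE 0.18, limma adjusted p = 0.0121), a call that was lost with only the strains compared (adjusted p = 0.0520).

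The other organelle genes were scarce in N2. The presenilin-family gene spe-4 (chromosome I, 7454660 to 7456953), needed for the fibrous body-membranous organelle, was at 0.0804, 0.428 and 0.350 TPM in N2, 9.69, 8.03 and 15.4 TPM in spo-11 and 1.34, 1.08 and 1.60 TPM in htp-3. These 3 groups did not overlap. It rose by 3.19 in spo-11 (SE 0.22, limma adjusted p = 7.96e-09), a ratio of means of 38.6, and by 0.87 in htp-3 (SE 0.22, limma adjusted p = 0.00345), a ratio of 4.67. The ferlin gene fer-1 (chromosome I, 8623017 to 8631184), whose protein lets membranous organelles fuse with the cell surface, was at 0.0256, 0.0516 and 0.0235 TPM in N2, 2.34, 2.73 and 5.18 TPM in spo-11 and 0.149, 0.0560 and 0.123 TPM in htp-3. Its ratio of spo-11 to N2 means was 102 although its log2 difference was only 2.04 (SE 0.18, limma adjusted p = 1.05e-07), which shows the reach of the pseudocount at such levels. In htp-3 it was 3.25 times the N2 mean without a call (limma adjusted p = 0.644).

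Further organelle genes that rose in spo-11 and were not called in htp-3 included the myosin VI gene spe-15, the casein kinase gene spe-6, the palmitoyltransferase gene spe-10 and the kelch-like gene spe-26. The kinase gene spe-6 (chromosome III, 11505535 to 11508919) was at 3.30, 4.23 and 3.49 TPM in N2, 13.2, 11.9 and 21.9 TPM in spo-11 and 3.13, 3.98 and 3.82 TPM in htp-3, so htp-3 overlapped N2 and spo-11 stood 4.27 times above it. The myosin gene spe-15 (chromosome I, 1446497 to 1465358) was at 1.54, 1.98 and 2.04 TPM in N2 and 18, 16.1 and 34.8 TPM in spo-11, a ratio of 12.4. The ratios for spe-26 and spe-10 were 57.1 and 75.1. The whole of spe-26 (2392 bases) lies opposite another gene, R10H10.3, which itself averaged 55.6 TPM in N2 and 130 TPM in spo-11, and 1956 bases of spe-15 lie opposite gst-25; whether the counting used strand is not given in the sources used here, so these values could include reads of the partner.

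Activation turns the spermatid into a motile cell, and the genes for it were at low levels outside spo-11. All 6 tested genes of 7 were higher in spo-11, beside 55.6% of all tested genes. All 6 pass the filter only through the spo-11 libraries, so the filter largely fixed that count. In htp-3, 2 of them, spe-12 and spe-46, were higher, beside 39.5%. The tyrosine kinase gene spe-8 (chromosome I, 118109 to 120870) was at 0.0416, 0 and 0.133 TPM in N2, 5.26, 5.31 and 9.91 TPM in spo-11 and 0.562, 0.159 and 0.701 TPM in htp-3. Each htp-3 value exceeded each N2 value, and each spo-11 value exceeded both. The log2 rise in spo-11 was 2.84 (SE 0.21, limma adjusted p = 1.43e-08), a ratio of means of 117 that rests on 9 reads in the N2 libraries together. In htp-3 the difference of 0.46 was not called (SE 0.21, limma adjusted p = 0.0680).

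The most abundant activation gene was spe-46 (chromosome I, 9056293 to 9057822). It was at 0.243, 0.645 and 0.918 TPM in N2, 35.6, 23.5 and 53.9 TPM in spo-11 and 1.70, 0.763 and 2.97 TPM in htp-3, and htp-3 replicate 2 fell inside the N2 range. It rose by 4.54 in spo-11 (SE 0.31, limma adjusted p = 8.51e-09) and by 0.76 in htp-3 (SE 0.31, limma adjusted p = 0.0468). The membrane protein gene spe-19 (chromosome V, 20040927 to 20047398) had no read in any N2 library and was at 2.14, 2.44 and 4.23 TPM in spo-11, at least 87.6-fold higher when the N2 group is set at a floor of 3 reads. The gene spe-27, of the same pathway, was at 0, 0 and 0.0645 TPM in N2 and at 5.18, 4.18 and 10.2 TPM in spo-11. The membrane protein gene spe-12 (chromosome I, 8224539 to 8226297) stood out by a small gap between the mutants: it was at 0.0366, 0.164 and 0.402 TPM in N2, 1.79, 1.04 and 2.20 TPM in spo-11 and 0.685, 0.479 and 1.27 TPM in htp-3. Its spo-11 and htp-3 libraries overlapped, with a ratio of means of 2.07, the lowest of the 6 activation genes with a ratio. The msp-domain gene spe-47 was at 0.576, 0.411 and 0.432 TPM in N2 and at 4.21, 4.42 and 8.24 TPM in spo-11, a ratio of 11.9. The small membrane protein gene spe-29 did not pass the filter. It was at 0.116, 0 and 0 TPM in N2 and at 0.776, 0.689 and 1.40 TPM in spo-11.

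Fertilization genes were also at low levels outside spo-11. All 4 tested genes of 6 were higher in spo-11, beside 55.6% of all tested genes. The filter fixed part of that count, since spe-9, spe-11 and spe-38 pass it only through the spo-11 libraries. In htp-3, spe-11 alone was higher, beside 39.5%. The gene spe-11 (chromosome I, 5330578 to 5332194), whose protein is brought in by the sperm and needed by the early embryo, was at 0.0958, 0.429 and 0.732 TPM in N2, 0.0872, 0.636 and 0.233 TPM in dsb-2, 53.4, 37.8 and 83.9 TPM in spo-11 and 2.36, 0.977 and 3.44 TPM in htp-3. Only N2 and dsb-2 overlapped. Its ratio of spo-11 to N2 means, 139, was the highest among the 49 genes with a ratio (log2 difference 5.34, SE 0.32, limma adjusted p = 4.37e-09), and its htp-3 rise was 1.15 (SE 0.32, limma adjusted p = 0.00707).

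The sperm surface genes were lower in level. The EGF-repeat protein gene spe-9 (chromosome I, 11582743 to 11586069) was at 0.0474, 0.0177 and 0.0145 TPM in N2, 1.45, 1.13 and 2.89 TPM in spo-11 and 0.115, 0.104 and 0.137 TPM in htp-3, with no overlap between these strains. The tetraspan protein gene spe-38 was at 0.0516, 0.0577 and 0.0473 TPM in N2 and at 2.59, 1.60 and 4.54 TPM in spo-11. Both were called in spo-11 (limma adjusted p = 2.90e-06 and 1.18e-06) and neither in htp-3 (limma adjusted p = 0.552 and 0.448). The calcium-permeable channel gene spe-41, or trp-3 (chromosome III, 3439023 to 3444207), was the gene of this class that was lower in htp-3 than in dsb-2. It was at 0.949, 1.60 and 1.43 TPM in N2, 2.02, 3.22 and 1.80 TPM in dsb-2, 5.93, 5.44 and 11.7 TPM in spo-11 and 0.824, 0.905 and 1.11 TPM in htp-3. Every htp-3 library lay below every dsb-2 library (log2 difference -0.76, SE 0.25, limma adjusted p = 0.0158), while htp-3 and N2 overlapped (-0.25, SE 0.25, limma adjusted p = 0.399). The DC-STAMP-like gene spe-42 did not pass the filter; its spo-11 libraries, at 0.900 to 1.82 TPM, lay above every other library.

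The phosphatase and PDZ-domain genes of sperm were all called in both mutants. GSP-3 and GSP-4 are protein phosphatase 1 enzymes of sperm, and SMZ-1 and SMZ-2 are PDZ-domain proteins of sperm. All 4 genes were higher in spo-11 and all 4 in htp-3, beside 55.6% and 39.5% of all tested genes. The gene gsp-3 (chromosome I, 4709262 to 4710712) was at 0.462, 0.937 and 1.67 TPM in N2, 64.5, 62.8 and 112 TPM in spo-11 and 4.41, 1.29 and 5.37 TPM in htp-3. Its spo-11 libraries were clear of all others, and htp-3 replicate 2 lay inside the N2 range. The rise was 5.31 in spo-11 (SE 0.39, limma adjusted p = 1.32e-08), a ratio of 78.1, and 1.13 in htp-3 (SE 0.39, limma adjusted p = 0.0208), a ratio of 3.61.

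Its partner genes kept close to these values. The ratios of spo-11 to N2 means were 58.9 for gsp-4, 42.8 for smz-2 and 38.3 for smz-1, and those of htp-3 to N2 were 3.97, 3.75 and 2.62. For none of the 4 genes did the 3 htp-3 libraries clear the 3 N2 libraries, where they did so for 43.3% of all tested genes. The gene gsp-4 shares 91 bases with T03F1.6 on the same strand, and gsp-3 and gsp-4 are close relatives, so reads could have been split between copies.

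**Figure D3:**
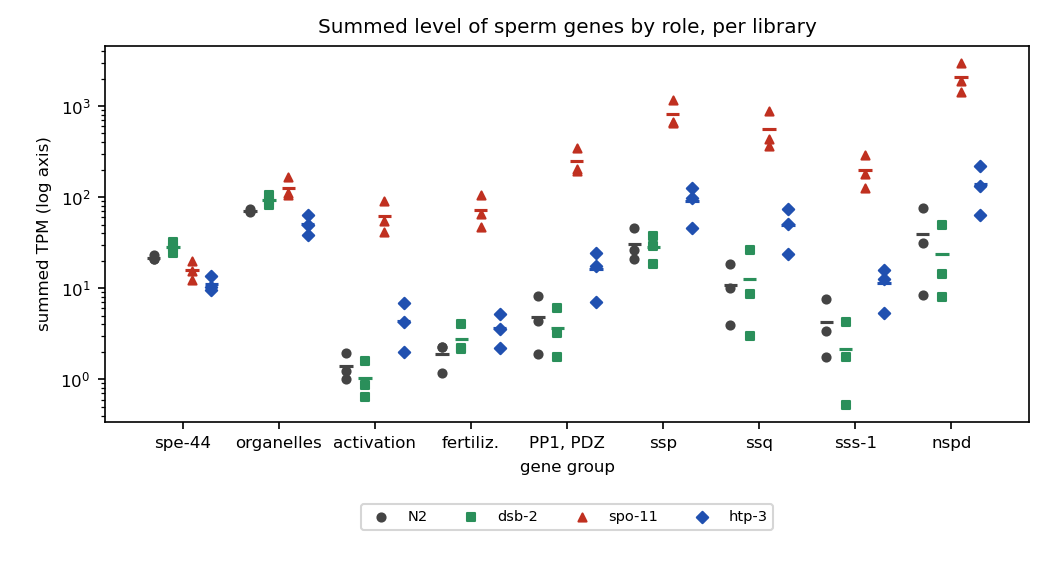
Summed TPM of the genes of each role except the lone gene spe-48 in each library (points, log axis), with a horizontal bar for the mean of the 3 libraries of a strain. The spo-11 points stand above all others in every role drawn except spermatocyte transcription (spe-44), and among the organelle genes they stand at 106 to 165 TPM over N2 points at 68.1 to 73.4 TPM.

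In spo-11, the nspd, ssp and ssq families, of unknown or poorly known function, had higher summed levels than any other role. In N2 the organelle genes, with a mean sum of 70.9 TPM, stood above the nspd genes (38.95 TPM) and the ssp genes (30.9 TPM). The nspd genes encode short nematode-specific peptides (group D), and 9 of the 10 were tested. Their summed level was 8.43, 31.4 and 77.0 TPM in N2, 14.2, 49.6 and 8.01 TPM in dsb-2, 132, 64.4 and 221 TPM in htp-3, and 1871, 1431 and 2993 TPM in spo-11. N2 and dsb-2 overlapped, and htp-3 replicate 2 lay below N2 replicate 3. All 9 were higher in spo-11, beside 55.6% of all tested genes. In htp-3, 8 were higher, beside 39.5%, the exception being nspd-10 (1.13, SE 0.49, limma adjusted p = 0.0583). Every htp-3 library lay above every N2 library for 3 of the 9, beside 43.3% of all tested genes.

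Within the family, nspd-1 (chromosome I, 6097494 to 6097837, a single exon) had the highest level and the largest log2 difference of the 51 genes. It was at 1.58, 5.72 and 12.8 TPM in N2, 2.03, 8.52 and 1.65 TPM in dsb-2, 459, 356 and 744 TPM in spo-11, and 27.9, 12.6 and 47.6 TPM in htp-3. The lowest htp-3 library lay just under the highest N2 library. The rise was 6.32 in spo-11 (SE 0.59, limma adjusted p = 1.47e-07) and 2.11 in htp-3 (SE 0.59, limma adjusted p = 0.00708). Next in spo-11 level came nspd-2 with a mean of 356 ± 149.7 TPM (SD, n = 3), nspd-7 with 302 ± 109.7 TPM and nspd-5 with 300.0 ± 123 TPM, and the N2 means of these were 8.98 ± 8.97, 4.87 ± 3.42 and 6.08 ± 6.33 TPM. The genes nspd-3 and nspd-4 averaged 243 ± 76.1 and 143 ± 62.6 TPM in spo-11, and their ratios to the N2 means were 42.4 and 73.5. The lowest of the tested family members was nspd-9 on chromosome III, at 18.7, 9.40 and 18 TPM in spo-11 and 0.188, 0.632 and 1.38 TPM in N2. Its ratio of spo-11 to htp-3 means, 4.80, was the lowest in the family. The remaining member, nspd-8, gave 0.165 TPM in spo-11 replicate 1 and 0 TPM in the other 11 libraries.

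The ssp genes encode small proteins with a domain like that of the major sperm proteins. All 12 were tested, 12 were higher in spo-11 and 6 in htp-3, beside 55.6% and 39.5% of all tested genes. Of the 12, ssp-32 and ssp-36 pass the filter only through the spo-11 libraries. Every htp-3 library lay above every N2 library for 3 of the 12, beside 43.3% of all tested genes. The most abundant, ssp-9 (chromosome IV, 4994324 to 4994739), was at 0, 5.94 and 14.9 TPM in N2, 164, 159 and 314 TPM in spo-11 and 16.2, 4.37 and 31.0 TPM in htp-3. Its spread within N2 and htp-3 was wide, and it was called in spo-11 (5.40, SE 0.89, limma adjusted p = 4.76e-05) but not in htp-3 (1.58, SE 0.89, limma adjusted p = 0.134). The genes ssp-10, ssp-11, ssp-35 and ssp-34 averaged 147 ± 58.9, 139 ± 37.5, 91.3 ± 31.2 and 83.7 ± 28.1 TPM in spo-11 (SD, n = 3), and all were also higher in htp-3. At the other end, ssp-32 had no read in any N2 or dsb-2 library and was at 6.80, 4.81 and 10.9 TPM in spo-11, at least 105-fold higher than N2 with the floor of 3 reads over the group. The other genes of the family had ratios of spo-11 to N2 means between 17 and 82.4, apart from ssp-37.

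The gene ssp-37 (chromosome I, 12561040 to 12561560) was the ssp gene without a called difference between the mutants. It was at 13.6, 9.69 and 6.76 TPM in N2, 16, 8.29 and 12.6 TPM in dsb-2, 31.1, 32.6 and 29.1 TPM in spo-11 and 33.3, 18.4 and 28.2 TPM in htp-3. Both spo-11 and htp-3 lay above all N2 libraries and overlapped each other. It rose by 1.58 in spo-11 (SE 0.28, limma adjusted p = 8.90e-05) and by 1.33 in htp-3 (SE 0.28, limma adjusted p = 0.00103), ratios of 3.09 and 2.65. The direct difference of htp-3 from spo-11 was -0.25 (SE 0.28, limma adjusted p = 0.497). Within N2, its highest library was replicate 1 and its lowest replicate 3, the reverse of most of the 51 genes.

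The ssq genes and sss-1 belong to sperm-specific families Q and S. All 4 ssq genes and sss-1 were higher in spo-11 and in htp-3, beside 55.6% and 39.5% of all tested genes. The summed ssq level was 3.96, 10 and 18.6 TPM in N2, 50.6, 24.0 and 73.5 TPM in htp-3 and 434, 368 and 889 TPM in spo-11, and these strains did not overlap. The summed ssq level in dsb-2 was 8.60, 26.3 and 2.99 TPM, and dsb-2 replicate 2 lay above htp-3 replicate 2. For each of the 4 ssq genes the 3 htp-3 libraries cleared the 3 N2 libraries, beside 43.3% of all tested genes. They cleared the 3 dsb-2 libraries for 1 of the 4, beside 45%. The ratios of htp-3 to N2 means lay between 4.16 and 4.93, and those of spo-11 to N2 between 47.3 and 56.9. The gene sss-1 (chromosome IV, 9892739 to 9893779) was at 1.75, 3.36 and 7.54 TPM in N2, 181, 125 and 289.7 TPM in spo-11 and 12.8, 5.30 and 15.9 TPM in htp-3, with htp-3 replicate 2 inside the N2 range. Members of the nspd, ssp and ssq families can share reads as near copies, and how such reads were assigned is not given in the sources used here, so these genes are uncertain as single genes.

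The last gene, spe-48 (chromosome I, 1950594 to 1958527), gave no call against N2. It was at 34.1, 36.5 and 30.2 TPM in N2, 33.3, 36.7 and 42.2 TPM in dsb-2, 25.1, 29.6 and 26.2 TPM in spo-11, and 20.8, 34.7 and 27.3 TPM in htp-3. All spo-11 libraries were below all N2 libraries by a narrow margin. The differences were not called in spo-11 (-0.31, SE 0.19, limma adjusted p = 0.157) or htp-3 (-0.30, SE 0.19, limma adjusted p = 0.189), and both were called lower under median-of-ratios scaling (-1.11, adjusted p = 8.22e-05, and -0.71, adjusted p = 0.00498).

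The direct comparison of the mutants placed spo-11 above htp-3 for nearly all of these genes. Of the 51, 47 were lower in htp-3 than in spo-11 and 0 were higher, where 38.6% of all tested genes were lower and 8.1% higher; 48 had an unadjusted p under 0.05, and limma-voom gave 46 lower and 0 higher. The filter fixed part of the count of 47. Among the 36 genes that pass it without the spo-11 libraries, 32 were lower and 0 higher. Of all genes that pass the same way, 28.3% were lower and 9.64% higher. With median-of-ratios scaling 45 of the 51 were lower and 0 higher, beside 26.4% and 22.4% of all tested genes. The htp-3 libraries lay below all spo-11 libraries for 46 of the 51 tested genes, where 43.7% of all tested genes did so, and above them for 0, where 10.9% did so. The overlapping genes among those tested were spe-12, spe-39, spe-44, spe-48 and ssp-37. The largest differences were those of nspd-10 (-4.29, SE 0.49), nspd-5 (-4.25, SE 0.61) and nspd-1 (-4.22, SE 0.59), with limma adjusted p of 2.89e-06, 3.24e-05 and 2.40e-05. Over 53 genes with more than 3 reads in htp-3, the ratio of spo-11 to htp-3 means had a median of 13.6 and a range from 0.977 to 40.8.

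Set against dsb-2, both mutants gave counts near those against N2. In spo-11, 47 of the 51 genes were higher and 3 lower than in dsb-2, where 55.9% of all tested genes were higher and 23.8% lower; the 3 were spe-39, spe-44 and spe-48. Among the 36 genes that pass the filter without the spo-11 libraries, 32 were higher and 3 lower, beside 47.7% and 28.3% of all genes that pass the same way. Every spo-11 library lay above every dsb-2 library for 47 of the 51, beside 56.6% of all tested genes, and below for 3, beside 26.1%. In htp-3, 27 were higher and 4 lower, where 41.6% were higher and 23% lower; the 4 were spe-5, spe-39, spe-41 and spe-44. With median-of-ratios scaling the split of all tested genes was 44.5% higher and 40.7% lower in spo-11, with 46 of the 51 higher and 4 lower, and 32.0% higher and 35.2% lower in htp-3, with 24 of the 51 higher and 5 lower. Every htp-3 library lay above every dsb-2 library for 26 of the 51, beside 45% of all tested genes, and below for 4, beside 20.7%. The differences of spo-11 from N2 and of htp-3 from dsb-2 share no library: across the 51 genes, they had a Pearson r of 0.909 and a Spearman rho of 0.906, and across all 13650 genes 0.701 and 0.739. This is a description across genes, which are not independent, and both axes grow with a gene's level through the pseudocount.

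Within a strain, these genes varied together between libraries. In N2, replicate 3 was the highest library for 36 of the 51 tested genes and replicate 1 the lowest for 40, where 21.6% and 48.9% of all tested genes were so ordered. Replicate 2 of dsb-2 was highest for 41, beside 51.3% of all genes. In spo-11 replicate 3 was highest for 47, beside 42% of all genes, and in htp-3 replicate 3 was highest for 41, beside 44.1%, and replicate 2 lowest for 42, beside 38.2%. The summed nspd level differed 9.13-fold between N2 replicates 3 and 1 and 2.09-fold between spo-11 replicates 3 and 2, and that of the activation genes 1.93-fold and 2.17-fold between the same libraries. The 4 genes abundant in N2 differed less, and their N2 sum lay between 118 and 123 TPM.

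Other genes of the sperm programme and markers of other cells moved in the same libraries. Of 28 tested major sperm protein genes, 27 were higher in spo-11, and 23 were higher and 1 lower in htp-3, against the shares of all tested genes given above (55.6% higher and 22.1% lower in spo-11, 39.5% and 19.7% in htp-3). Their summed level was 54.2, 119.9 and 337 TPM in N2, 536, 212 and 739 TPM in htp-3 and 3794, 3931 and 7022 TPM in spo-11. The highest and the lowest library in N2 and in htp-3 were those of the summed nspd genes. Every htp-3 library lay above every N2 library for only 2 of the 28 major sperm protein genes, beside 43.3% of all tested genes. For 1 of the 28 every htp-3 library lay below, beside 20.2%. Of 20 further genes of sperm fate and sperm structure, 17 were higher and 2 lower in spo-11. The filter fixed part of the count of 17, since alg-3, alg-4, comp-1, snf-10, peel-1 and fog-3 pass it only through the spo-11 libraries. In htp-3, 5 of the 20 were higher and 4 lower, beside 39.5% and 19.7% of all tested genes.

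Single genes of this list did not all move alike. The sperm-fate gene fog-3 was at 1.01, 0.696 and 0.540 TPM in N2, 30.9, 34.6 and 41.1 TPM in spo-11 and 0.851, 0.286 and 0.711 TPM in htp-3. It rose by 4.38 in spo-11 (SE 0.19, limma adjusted p = 7.73e-10) and htp-3 overlapped N2 (-0.12, SE 0.19, limma adjusted p = 0.596). The sperm-fate gene fog-1 was higher in spo-11 (1.69, SE 0.22, limma adjusted p = 4.07e-06) and lower in htp-3 (-0.74, SE 0.22, limma adjusted p = 0.00960). The sperm chromatin gene spch-1 was higher in both, by 5.60 in spo-11 (SE 0.45, limma adjusted p = 3.48e-08) and 1.79 in htp-3 (SE 0.45, limma adjusted p = 0.00387). The 2 genes lower in spo-11 were zipt-7.1, which encodes a zinc transporter, and the kinase gene wee-1.3, both of them at 67.7 TPM or more in every N2 library.

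Oocyte genes moved the other way. Of 10 markers (rme-2, oma-1, oma-2, lin-41, puf-5, cpg-1, cpg-2, egg-1, egg-2 and chs-1), 10 were lower in spo-11 and 10 in htp-3, beside 22.1% and 19.7% of all tested genes. Their summed level was 5765 to 6255 TPM in N2, 2082 to 2359 TPM in spo-11 and 1824 to 4059 TPM in htp-3. In htp-3, replicate 2 had the highest oocyte sum and the lowest sum of the 55 sperm genes. TPM is a share of a fixed total, so the values of different genes are not independent of each other.

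The summed levels of the 8 male soma and the 8 moult markers were below that of the 55 genes in every library. These sums cover unlike numbers of genes and do not compare levels per gene. The 8 male soma markers (pkd-2, lov-1, cwp-1 to cwp-5 and mab-3) summed to 0.127 to 0.252 TPM in N2, 2.23 to 3.34 TPM in spo-11 and 0.943 to 1.83 TPM in htp-3. Every spo-11 library lay above every N2 library for 5 of the 8 (pkd-2, lov-1, cwp-4, cwp-5 and mab-3), beside 56.9% of all tested genes. Every htp-3 library did so for 3 of the 8, beside 43.3%. These shares are over genes that passed the filter, which most of the 8 did not. The gene cwp-4 was at 0.0708, 0.0264 and 0.0216 TPM in N2 and at 0.631, 0.365 and 0.398 TPM in spo-11. The male neuron genes pkd-2 and lov-1 stayed near 0, with no library above 0.129 TPM. The gene cwp-1 was at 0 TPM in every N2 and spo-11 library. Of the 8, mab-3 alone passed the filter, and it was higher in both mutants. It passed only through the spo-11 libraries, so the filter largely fixed its call in spo-11. The genes try-5, a protease of male seminal fluid, and swm-1, a protease inhibitor that restrains sperm activation in males, were higher in both mutants. The gene try-5 was at 0.0247, 0.194 and 0.113 TPM in N2, 3.61, 2.0 and 2.89 TPM in spo-11 and 1.44, 0.675 and 0.726 TPM in htp-3. Of 7 tested moult genes, 5 were higher and 0 lower in spo-11, where 55.6% of all tested genes were higher, and 4 were higher and 1 (mlt-10, -0.61) lower in htp-3, where 39.5% were higher. Of the 5, nas-36, ptr-4 and qua-1 pass the filter only through the spo-11 libraries. The moult genes had sums of 10.5 to 19.7 TPM in N2, 29.4 to 43.7 TPM in spo-11 and 23.5 to 37.8 TPM in htp-3. The part of these marker genes' cells, and of the lower oocyte transcripts, in the sperm gene results was not tested.

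**Figure D4:**
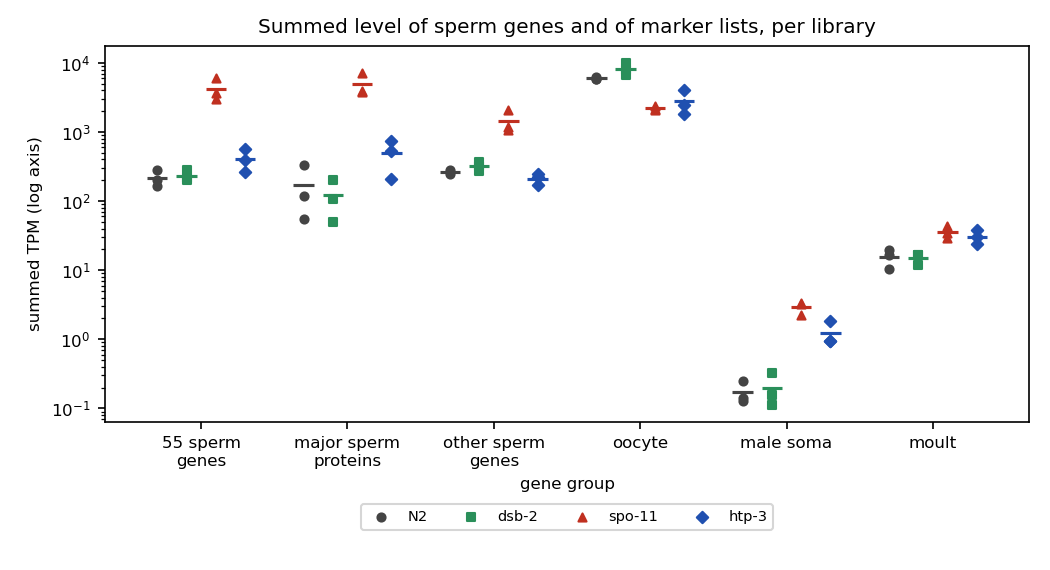
Summed TPM per library (points, log axis) of the 55 genes, the major sperm proteins, the other sperm genes, and the oocyte, male soma and moult markers, with a horizontal bar for the strain mean. The spo-11 points of the 55 genes stand at 3024 to 6085 TPM, the oocyte points of spo-11 at 2082 to 2359 TPM lie below all N2 points, and the male soma points stay at or below 3.34 TPM.

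In the genome these genes were grouped on chromosomes I and IV. Positions are those of the deposited tables (build WBcel235), and all 55 genes are protein coding in the annotation. Chromosome I held 22 and chromosome IV 22 of the 55, where 14.3% and 16.3% of all listed genes lie on them. Chromosome V held 6, III held 3, II held 2 and X held 0, where X has 13.7% of listed genes. Of the 55, 14 have a single exon, and the transcripts of the nspd genes (216 to 439 bases of exon) and ssp genes (381 to 528) are short.

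Some of the genes lie side by side. Counting neighbours within 20000 bases, 19 of the 55 fell into 8 runs. The longest, on chromosome IV from 4994324 to 5017741, holds ssp-9, ssq-2, ssp-11 and ssq-4, and another from 9844014 to 9853609 on the same chromosome holds nspd-2, ssp-10 and ssq-1. In the longest run ssp-9, ssq-2, ssp-11 and ssq-4 averaged 212 ± 88.3, 139 ± 69.9, 139 ± 37.5 and 170.4 ± 86.6 TPM in spo-11 (SD, n = 3). Other runs held genes of unlike level in spo-11: nspd-1 averaged 520 TPM and its neighbour ssp-16 46.1 TPM, and sss-1 averaged 199 TPM and its neighbour ssp-32 7.52 TPM. A further run on chromosome IV, from 12452066 to 12456175, pairs genes of opposite direction: spe-44, which was called higher in no mutant, lies beside smz-1, which rose 38.3-fold in spo-11.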

How the data were processed

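RNA of whole adults was measured in 12 libraries, 3 per strain. The authors deposited a table per library with RPKM and TPM values, per the file headers; both scale reads by exon length, RPKM also by mapped reads. The submitters' processing notes name WBcel235 as the build. Not given in the sources used here: the aligner, the counting method, its annotation, strandedness and the treatment of reads with several matches. Read counts were rebuilt from the deposited RPKM values, with the depth of each library set by the value of 1 read. The depths set in this way were 32422219 to 42527086 mapped reads. All 18042 genes of 18042 that had a value in 4 or more libraries were whole within 0.05 reads. For most of the sperm genes, the exon length was itself found by a search for a length giving whole reads. For genes with a searched length, whole reads are therefore no independent check of the rebuilt counts. The libraries within a strain differed beyond sampling noise (lowest chi-square per degree of freedom, 49.5), and each counts as a replicate.

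The test was limma's moderated test with a trend of variance on level (version 3.58.1, R version 4.3.3), on log2(TPM + 1) of genes at 1 TPM or more in 3 of the 12 libraries, with a mean per strain, 6 comparisons, and Benjamini-Hochberg adjustment over all genes tested within each comparison. The procedure was tested on simulated data. P-values measure the spread between these libraries. Ratios use strain means, and a strain with no read is set at a floor of 3 reads over the group; ratios and floors cover counting error only. The genes named were, per role, the 6 of highest mean TPM, and per comparison the 3 largest and 3 smallest differences, the called genes against the main direction, and the highest of each marker list; fog-1, fog-3, spch-1, zipt-7.1, ssp-32, ssp-37, nspd-9 and genes that did not pass the filter were chosen after their values were seen. The members, roles and marker lists were chosen with earlier results of these data known, so counts over them are descriptions. All 55 gene identifiers were found in the Ensembl annotation used here, 10 with the same start and end; the identifier listed as ssp-11 carries the name ssp-9 there, and the deposited names are used. The values of 2 of the genes are not reported singly here.

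Same-numbered libraries of spo-11 and htp-3 deviated together (r across genes of 0.12, 0.44 and 0.23). The values were also all positive for dsb-2 with N2 (0.35, 0.39 and 0.07) and for spo-11 with N2 (0.14, 0.04 and 0.34). They were of mixed sign in the other pairs of strains, among them htp-3 with dsb-2 (0.36, -0.14 and -0.39). The labels give no pairing, and the main fit used none in any contrast. Pairing by replicate number entered only as an alternative, the replicate block. The alternatives were median-of-ratios and upper-quartile scaling, RPKM in place of TPM, no filter, a minimum of 5 TPM, pseudocounts of 0.1 and 5, only the strains compared, a replicate block, limma-voom on the rebuilt reads, and each library left out.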

Additional observations from a re-analysis of the deposited data

How the results depend on the processing

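No called difference of a single sperm gene changed sign under the alternatives run; the marker lists, sums and neighbouring genes were not run under them. The split of all tested genes did turn: for htp-3 against N2 it went from more higher than lower to 4213 higher and 4743 lower with median-of-ratios scaling. The count of lower genes in spo-11 against N2 rose from 1 to 4 with median-of-ratios scaling, 3 with upper-quartile scaling and 2 with RPKM, with only the strains compared and with limma-voom on rebuilt reads, and it was 0 to 2 with a library left out; the cause was not tested. The count of higher genes in htp-3 against N2 fell from 27 to 14 with a pseudocount of 5 and was 18 with median-of-ratios scaling, where 30.9% of all tested genes were higher, 19 of 55 with no filter, where 29.6% were, and 12 to 34 with a library left out. Leaving out a library gave 36 to 47 higher genes in spo-11 against N2, with 40 genes tested where the count was 36, and 2 to 4 lower in htp-3 against N2. It gave 36 to 47 higher and 2 to 3 lower in spo-11 against dsb-2, 22 to 35 higher and 3 to 5 lower in htp-3 against dsb-2, and 34 to 47 lower in htp-3 against spo-11. A replicate block (the pairing by number) moved no count by over 1.5 times: 47 higher and 1 lower in spo-11 against N2, 31 and 3 in htp-3 against N2, 47 lower in htp-3 against spo-11, and 0 in dsb-2 against N2. Among single genes, 840 of the values run for spo-11 against N2 kept their side of the threshold, 10 gained a call and 1 lost it; for htp-3 against N2 the numbers were 734, 25 and 82. Depth limits the genes with few N2 reads, whose ratios are imprecise.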

Other observations

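The genes that lie between members of the 8 runs number 18. They are not sperm genes by name, apart from spch-3 and msp-77, and 14 of them were tested. Of the 14, 11 were higher in spo-11 than in N2 and 0 lower, where 55.6% of all tested genes were higher and 22.1% lower. The filter fixed part of that count. C55C2.4, C55C2.3, T27A3.5, K07F5.6 and K07F5.8, all among the 11, pass it only through the spo-11 libraries. Of all genes that pass without the spo-11 libraries, 47.4% were higher and 26.3% lower. The 11 also include spch-3 and msp-77. In the run on chromosome IV that holds ssp-9 to ssq-4, the uncharacterised gene T28H11.7 (5015276 to 5016281) was at 0.0911, 1.17 and 1.09 TPM in N2, 69.3, 52.1 and 116 TPM in spo-11 and 2.65, 1.10 and 6.19 TPM in htp-3, whereas pes-1 in the same run was at 1.92, 2.19 and 2.20 TPM in N2 and 2.84, 2.46 and 2.09 TPM in spo-11. Between nspd-3 and nspd-6, C24D10.2 (5163293 to 5164351) was at 0.159, 0.594 and 1.07 TPM in N2, 51.2, 42.1 and 83.9 TPM in spo-11 and 2.04, 1.62 and 4.21 TPM in htp-3. Between nspd-1 and ssp-16 on chromosome I, T27A3.5 was at 0.0494, 0.304 and 0.408 TPM in N2 and at 15.2, 9.96 and 24.9 TPM in spo-11. In the run on chromosome II, dnj-9 and F11G11.5 lie between nspd-4 and nspd-5 and were not called (limma adjusted p = 0.432 and 0.0548). The neighbours named here were chosen after their values were seen.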
